A study of Mus musculus with 16 samples.

Results

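Cx3cl1, the gene of the chemokine fractalkine, and Adam10 and Adam17, the genes of the proteases that release it from the cell surface, were followed through gene counts, m6A peaks and YTHDF2-bound peaks of MC38 cells, a mouse colon carcinoma line. The members were taken by their symbols from a table of 55401 genes, and all 3 passed the low-count filter that left 18969 genes to test. The series held 16 libraries, all of cultured MC38 cells in the same medium and with no treatment named. WT cells gave 3 input and 3 m6A immunoprecipitation libraries, Ythdf2-KO cells gave 3 and 3, and YTHDF2 RNA immunoprecipitation (RIP) from WT cells gave 2 libraries with 2 inputs. Titles tag the WT libraries gNC and the Ythdf2-KO libraries gY2, so the WT cells may carry a guide of their own. The labels do not state whether the Ythdf2-KO cells were 1 clone or a pool, or whether replicates came from separate cultures. The p-values below therefore measure the spread between these libraries, which may be technical.

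Fractalkine is made as a transmembrane protein with its chemokine domain carried on a mucin-like stalk. In that form it holds cells that bear its receptor CX3CR1, and once cut near the membrane it becomes a soluble attractant for monocytes, natural killer cells and T cells. ADAM10 is the protease mainly tied to its constant release and ADAM17, also called TACE, to its release on stimulation. Both enzymes cut many other surface proteins. YTHDF2 binds mRNA carrying N6-methyladenosine (m6A) and recruits enzymes that shorten the poly(A) tail.

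Cx3cl1 (ENSMUSG00000031778.13) lies on chromosome 8 from 94772009 to 94782427 on the plus strand of mm10. Its reference transcript, the one with most coding bases in GENCODE M21 (ENSMUST00000034230.6), has 3 exons and 3315 bases. Adam10 (ENSMUSG00000054693.14) lies on chromosome 9 from 70678997 to 70780229 on the plus strand, with a reference transcript of 16 exons and 4593 bases. Adam17 (ENSMUSG00000052593.16) lies on chromosome 12 from 21323509 to 21373632 on the minus strand, with 20 exons and 4469 bases. The stretches shown next were chosen from those where the WT and KO m6A lists both placed a peak, cut to the coding part or to 21 bases where they reach an untranslated region (UTR). Capitals mark the DRACH motif of m6A, which is A, G or T, then A or G, then A, then C, then A, C or T, read on the transcript strand. Letters are from GENCODE M21 (GRCm38, the assembly of mm10). A 376-base Adam17 coding stretch over exons 5 to 9, with 9 motifs, and a 121-base Adam10 5′ UTR stretch, with 0, are not shown.
Cx3cl1, coding exon 3, chr8:94779698-94779818, plus strand, under both m6A peaks, with the last 91 bases also under a RIP peak: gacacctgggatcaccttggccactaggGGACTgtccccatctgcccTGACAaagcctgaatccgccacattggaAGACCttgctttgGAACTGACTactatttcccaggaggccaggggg
Adam17, coding end of exon 20, chr12:21325279-21325484, minus strand, under peaks of all 3 lists: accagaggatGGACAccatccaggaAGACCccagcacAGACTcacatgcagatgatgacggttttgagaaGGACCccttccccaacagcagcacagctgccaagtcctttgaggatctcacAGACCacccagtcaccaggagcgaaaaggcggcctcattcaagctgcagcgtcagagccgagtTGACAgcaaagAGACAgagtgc
Adam17, 3′ UTR, chr12:21324360-21324380, minus strand, under peaks of all 3 lists: cacagtatGGACTgagtggtg
Adam10, 3′ UTR, chr9:70778326-70778346, plus strand, under both m6A peaks: gatattttTAACCtaatggca
The Cx3cl1 stretch held 5 whole DRACH motifs, of which GAACT and TGACT share a base, and 1 of the 5 was GGACT. Of 373771 windows of the same 121 bases laid end to end over the longest coding transcripts of 12834 tested genes, 90.4% held a DRACH motif, 9.01% held at least 5 and 12.0% held GGACT. A match is only a description of these letters.

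Total counts of the 6 input libraries ran from 45441281 to 50959555, so that 3 counts, the limit that a count of 0 allows for counting error only, stood at 0.0582 to 0.0652 CPM, the read count of a gene scaled to the size of its library. Whole-gene reads of Ythdf2, the targeted gene, were 55.6, 68.6 and 59.7 CPM in WT and 67.9, 59.8 and 61.5 CPM in the libraries labelled KO (log2 fold change 0.04, SE 0.10, edgeR adjusted p = 0.809). These reads include exons outside any edited site and do not check the knockout, so KO below stands for the label. On the first principal component, which held 51.4% of the variance, the WT libraries stood at -38.6 to -39.2, KO replicates 2 and 3 at 64.1 and 63.2, and KO replicate 1 between them at -10.4. The calls of members and gene groups are therefore also given without KO replicate 1. Of the epithelial markers fixed for the line, Epcam, Krt18 and Cldn7 had no count in any library and all 8 lay under 1 CPM in every library, so the data do not show the epithelial identity of the tissue of origin. Fibroblast markers summed to 319 to 363 CPM in WT and 258 to 294 CPM in KO. By edgeR 1 of their 8, the matrix proteoglycan gene Dcn, was lower in KO, beside 1.54% of all tested genes. At an unadjusted p below 0.05, 3 were lower, DESeq2 called 2 lower, and without KO replicate 1 edgeR called 5 lower and 1 higher. Over all genes the shares lower were 12.6%, 8.61% and 16.1%, and 19.3% were called higher without KO replicate 1. The part of these markers in the results below was not tested.

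The first question was whether the ligand and its sheddases differed between WT and KO input RNA. Cx3cl1 rose in the KO libraries, by 2.77-fold. Its counts were 380, 308 and 329 in the WT libraries and 647, 1122 and 1091 in the KO libraries, or 8.04, 6.69 and 6.38 CPM against 12.6, 22.8 and 23.2 CPM. Every KO library lay above every WT library, and KO replicate 1 was the lowest of the KO libraries. The means were 7.04 ± 0.880 CPM (SD, n = 3) in WT and 19.5 ± 6.03 CPM (SD, n = 3) in KO. The log2 fold change was 1.47 (SE 0.25), with an edgeR adjusted p of 0.0336 over all genes tested. In all, 2.99% of tested genes were called higher by that test and 1.54% lower. By the size of its log2 fold change Cx3cl1 ranked 194 of 18969 genes, where 1.02% of genes stood at or above it. In bulk RNA such as this, more cells of a type and more RNA per cell cannot be told apart.

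The Cx3cl1 call depended on which libraries entered. Without KO replicate 1 the log2 fold change was 1.71 (SE 0.12, edgeR adjusted p = 0.000155). It lost the call without WT replicate 1 (1.56, adjusted p = 0.0693), WT replicate 2 (1.44, adjusted p = 0.153), WT replicate 3 (1.40, adjusted p = 0.176), KO replicate 2 (1.35, adjusted p = 0.132) or KO replicate 3 (1.33, adjusted p = 0.137), each by edgeR. The call was also lost with the replicate number as a block (1.43, edgeR adjusted p = 0.0668) and without the low-count filter (1.48, edgeR adjusted p = 0.0665). In the 5 fits that each left out 1 of those libraries the number of all genes called higher also dropped from 568 to between 0 and 53. DESeq2 on the 6 libraries gave a log2 fold change of 1.47 with an adjusted p of 6.51e-07.

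Adam10, which encodes the protease tied to constant release, had 5171, 4414 and 4706 counts in WT and 6731, 6238 and 5862 in KO. These were 109, 95.9 and 91.3 CPM against 131, 127 and 125 CPM. The groups did not overlap, and KO replicate 1 was the highest library. The means were 98.9 ± 9.40 CPM (SD, n = 3) and 127 ± 3.04 CPM (SD, n = 3), and the log2 fold change of 0.37 (SE 0.08) did not pass the edgeR test (adjusted p = 0.0528). Adam17, which encodes the protease tied to stimulated release, had 5687, 5110 and 5450 counts in WT and 6538, 7575 and 7258 in KO. These were 120, 111 and 106 CPM against 127, 154 and 155 CPM, again without overlap, with KO replicate 1 the nearest to WT. The means were 112 ± 7.37 CPM (SD, n = 3) and 145 ± 15.7 CPM (SD, n = 3), and the log2 fold change was 0.37 (SE 0.10, edgeR adjusted p = 0.0699), also not past the test. The lack of overlap is common in these data, since 17.7% of tested genes had every KO library above every WT library and 16.2% had every one below.

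Both sheddase genes lay close to the threshold, and other settings moved them across it. Without KO replicate 1, Adam10 gave a log2 fold change of 0.35 (edgeR adjusted p = 0.0154) and Adam17 0.46 (SE 0.07, edgeR adjusted p = 0.00251). That fit called 19.3% of its genes higher and 16.1% lower. DESeq2 on all 6 libraries gave 0.36 for Adam10 (adjusted p = 0.00258) and 0.36 for Adam17 (adjusted p = 0.0108), in a test that called 14.3% of its genes higher and 8.61% lower. Part of the Adam17 gene overlaps Iah1, a hydrolase gene on the opposite strand, over 311 exonic bases or 4.35% of the exonic length of Adam17. No label or header names the strand setting of the counter, so reads over those bases cannot be assigned. Iah1 itself stood at 41.2 CPM in WT and 31.9 CPM in KO (log2 fold change -0.37, edgeR adjusted p = 0.129), not past the test. Without KO replicate 1 it was called lower (-0.53, SE 0.08, edgeR adjusted p = 0.00182), opposite in sign to Adam17.

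**Figure D1:**
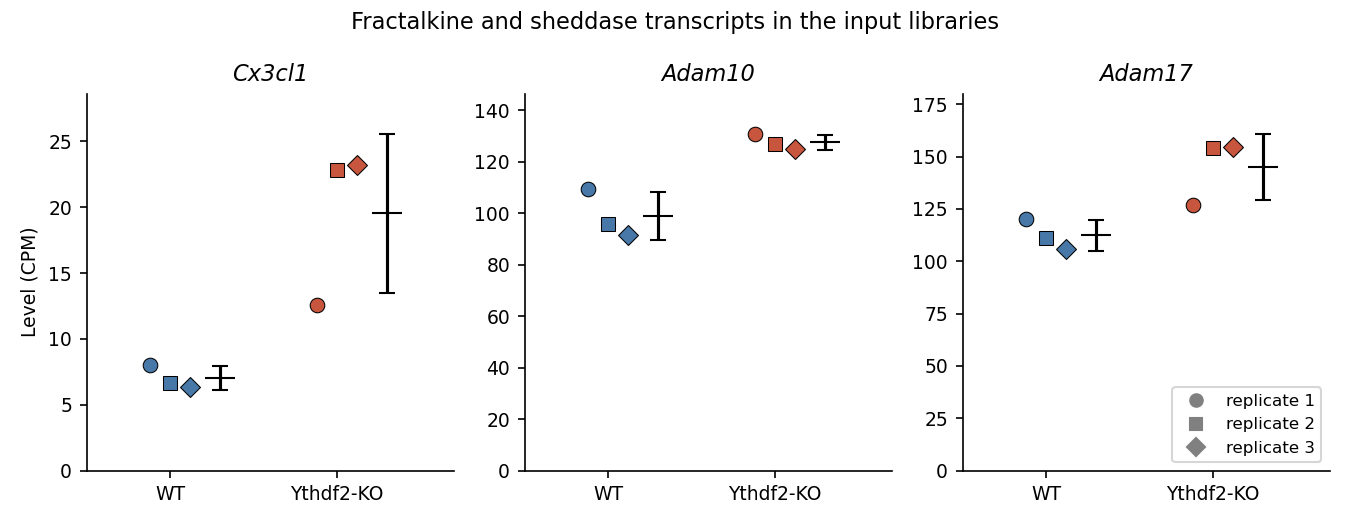
TMM-scaled level in CPM (y axis, from 0) of Cx3cl1, Adam10 and Adam17 in each input library, with circles, squares and diamonds for replicates 1, 2 and 3 and, beside them, the mean with its SD. Cx3cl1 stands at 6.38 to 8.04 CPM in WT and 12.6 to 23.2 CPM in KO, and no gene's groups overlap.

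**Figure D2:**
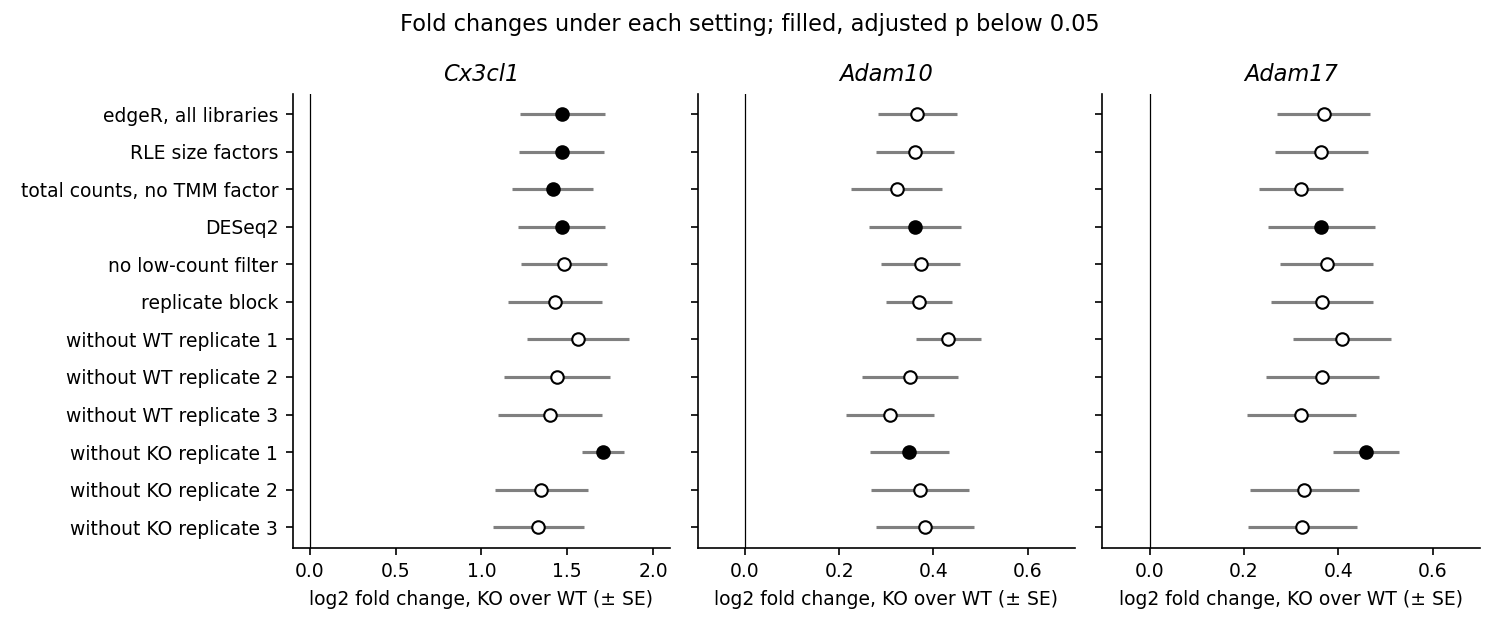
The log2 fold change of KO over WT (x axis, with SE) of each gene under each setting (y axis), filled where the adjusted p is below 0.05. Cx3cl1 runs from 1.33 to 1.71, Adam10 from 0.31 to 0.43 and Adam17 from 0.32 to 0.46, all above 0.

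KO replicate 1 did not hold the same place for the 3 genes. On the log2 scale it stood 49.1% of the way from the WT mean to the mean of KO replicates 2 and 3 for Cx3cl1 and 39.0% of the way for Adam17. For Adam10 it stood at 116%, past the other KO libraries. The median over the 2287 genes that differed by at least 1 on the log2 scale between those KO replicates and WT was 26.5%.

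Levels were compared between the genes as CPM per kilobase of annotated exons. Adam10 stood at 20.1 ± 1.91 CPM per kilobase (SD, n = 3) in WT and 25.9 ± 0.618 in KO, and Adam17 at 15.7 ± 1.03 and 20.3 ± 2.20. Cx3cl1 was far below both, at 1.79 ± 0.224 CPM per kilobase in WT and 4.97 ± 1.54 in KO. Ranked among 18459 genes, the level of Cx3cl1 exceeded 36.0% of genes in WT and 52.9% in KO, against 81.9% and 85.1% for Adam10 and 77.4% and 81.5% for Adam17. The order of the sheddase genes rests on the length used. Per kilobase of the reference transcript alone, Adam10 stood at 0.855 of Adam17 in WT, in place of 1.28, while Cx3cl1 stayed the lowest of the 3 under both lengths.

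Ratios within a library do not depend on its total count. Cx3cl1 per unit of the summed sheddase genes was 0.0523, 0.0486 and 0.0487 in WT and 0.0721, 0.123 and 0.126 in KO, each level per kilobase. Every KO ratio lay above every WT ratio, with KO replicate 1 the nearest to WT. The means were 0.0499 ± 0.00214 and 0.107 ± 0.0301 (SD, n = 3 each, 2.08-fold by log means, two-sided exact permutation p = 0.1, the smallest that 3 against 3 allows). The ratio of Cx3cl1 to Adam10 alone was 0.0919, 0.0872 and 0.0874 in WT and 0.120, 0.225 and 0.233 in KO. Adam10 per Adam17 was 1.32, 1.26 and 1.26 in WT and 1.50, 1.20 and 1.18 in KO, where the groups overlap (two-sided exact permutation p = 1.0, n = 3 each).

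By the Pearson correlation of log2 CPM over the 6 libraries, the genes most like Cx3cl1 were Chsy1, a chondroitin synthase gene, Dcbld2, Itga7, an integrin alpha chain gene, C1galt1, an O-glycan galactosyltransferase gene, and Chd7, a chromatin remodeller gene, each at r = 0.999. Adam17 stood at r = 0.988 with Cx3cl1, 194th of 18968 genes, and Adam10 at r = 0.857, 3062nd. The genes most like Adam10 were Eif2s2, Hunk, Abcd4, Filip1l and Gm43138 (r = 0.997 to 0.995), and those most like Adam17 were Crybg3, Sertad2, Ahdc1, Fam210b and Gxylt1 (r = 1.00 to 0.999). These values describe 6 libraries in 2 groups. KO replicate 1 stood between WT and the other KO libraries for Cx3cl1 and Adam17, and was the highest library for Adam10.

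Cx3cr1, the fractalkine receptor gene, had 2, 0 and 0 counts in WT and 5, 5 and 7 in KO, which was too few to test. Cxcl16, the gene of the other transmembrane chemokine cut by ADAM10, had 6, 5 and 30 counts in WT and 7, 6 and 0 in KO, likewise too few. Integrins also bind the fractalkine chemokine domain, and none of the 3 tested integrin genes passed the edgeR test on all libraries. Itgav, an alpha chain gene, stood at 79.0 CPM in WT and 118 CPM in KO (log2 fold change 0.58, edgeR adjusted p = 0.0676), and was called without KO replicate 1 (0.75, edgeR adjusted p = 0.000226) and by DESeq2 (adjusted p = 0.00548). Itgb3, the gene of its beta 3 partner, was at 0.714 and 0.446 CPM (-0.68, edgeR adjusted p = 0.170), and at -0.81 without KO replicate 1 (edgeR adjusted p = 0.0946). Itgb1, a beta chain gene, stood at 551 and 697 CPM (0.34, edgeR adjusted p = 0.115) and was called without KO replicate 1 (0.44, edgeR adjusted p = 0.0109) but not by DESeq2 (adjusted p = 0.0506). Itga4, an alpha chain gene, had 0 counts in WT and 11, 0 and 0 in KO and was not tested.

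Around the 3 members, 71 other genes were listed as integrin and chemokine partners, sheddase regulators, other substrates, other proteases that cut fractalkine, gamma-secretase subunits and other ADAM proteases. Of these, 57 were tested, 6 rose (10.5%), 0 fell and 51 were not called by edgeR, beside the 2.99% of all tested genes called higher. At an unadjusted p below 0.05, edgeR had 18 of them higher and 9 lower, where 16.9% of all tested genes were higher and 12.6% lower, and DESeq2 called 12 higher and 4 lower. Their median log2 fold change was 0.13, and that of all tested genes was -0.01. Without KO replicate 1, edgeR called 25 higher and 10 lower of 59 tested. Over all genes that fit called 19.3% higher and 16.1% lower, and DESeq2 14.3% and 8.61%. Leaving out any of the other 5 libraries, or the low-count filter, left 0 list genes called higher, and the replicate block left 1.

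Among 14 regulators of the sheddases, 2 rose and 0 fell, with a median log2 fold change of 0.22. At an unadjusted p below 0.05, 5 were higher and 3 lower, and DESeq2 called 3 and 1. Both genes that rose encode TspanC8 tetraspanins, which escort ADAM10 to the cell surface and steer its choice of substrate. Tspan5 was at 16.5, 18.2 and 16.0 CPM in WT and 22.2, 25.5 and 27.3 CPM in KO (log2 fold change 0.56, SE 0.12, edgeR adjusted p = 0.0436). Tspan15 was at 11.9, 13.3 and 12.0 CPM in WT and 16.3, 22.7 and 20.2 CPM in KO (0.67, edgeR adjusted p = 0.0488), and for both genes every KO library lay above every WT library. Of the other tetraspanin genes listed, Tspan10 was at 0.536 CPM in WT and 0.146 CPM in KO (-1.84, edgeR adjusted p = 0.0702). Tspan17 was at -0.20, Tspan14 at 0.17 and Tspan33 at 0.27 (edgeR adjusted p = 0.140, 0.308 and 0.515). Without KO replicate 1, edgeR called Tspan10 and Tspan17 lower (adjusted p = 0.00794 and 0.0127) and Tspan14 higher (adjusted p = 0.0217). Rhbdf2, which encodes the iRhom2 protein that carries ADAM17 to the surface, was at 8.27, 8.28 and 9.33 CPM in WT and 8.84, 19.4 and 20.0 CPM in KO. Its KO replicate 1 lay within the WT range, and its log2 fold change of 0.90 did not pass the test (edgeR adjusted p = 0.101). It was called without KO replicate 1 (1.19, SE 0.10, edgeR adjusted p = 0.000292) and by DESeq2 (adjusted p = 0.0169). Timp3, the gene of the secreted inhibitor of ADAM17, had 15, 15 and 18 counts in WT and 37, 0 and 13 in KO, with no shared direction (0.01, edgeR adjusted p = 0.994).

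Of 24 tested substrates of the same proteases, 2 rose and 0 fell by edgeR, with 8 higher and 2 lower at an unadjusted p below 0.05, 6 and 1 called by DESeq2, and a median log2 fold change of 0.18. Both encode ligands of the epidermal growth factor receptor family that, like fractalkine, are freed by cleavage. Hbegf was at 4.32, 2.87 and 3.40 CPM in WT and 5.58, 11.2 and 11.6 CPM in KO (log2 fold change 1.42, SE 0.31, edgeR adjusted p = 0.0492). Ereg was at 14.3, 11.2 and 11.8 CPM in WT and 18.4, 30.2 and 28.7 CPM in KO (1.05, edgeR adjusted p = 0.0398). In both, KO replicate 1 lay between WT and the other KO libraries, as it did for Cx3cl1. Of the other tested ligands of that family, Areg (1.24, edgeR adjusted p = 0.0842), Btc (0.59, edgeR adjusted p = 0.120) and Nrg1 (0.31, edgeR adjusted p = 0.569) were above 0. Egf was below 0 (-0.70, edgeR adjusted p = 0.139). The 2 substrates lower at an unadjusted p below 0.05 were Egf and Il6ra (-1.09, edgeR adjusted p = 0.0714). Both were called lower without KO replicate 1 (-1.04 and -1.56, edgeR adjusted p = 0.00292 and 8.27e-05), where Areg was called higher. Of 6 gamma-secretase genes, whose complex cuts the stubs that sheddases leave, Aph1b alone was called, at 16.9, 19.6 and 17.9 CPM in WT and 26.0, 29.4 and 31.9 CPM in KO (0.68, edgeR adjusted p = 0.0333). In that list 2 genes were lower at an unadjusted p below 0.05, by DESeq2 and without KO replicate 1 alike, when 1 was higher in each. They were Psen2, a catalytic subunit gene (edgeR log2 fold change -0.59, DESeq2 adjusted p = 0.00795), and Psenen, the gene of a subunit that activates the complex (edgeR log2 fold change -0.28, DESeq2 adjusted p = 0.00936). Of 7 tested relatives in the ADAM family, Adam15 alone was called, at 120, 118 and 120 CPM in WT and 146, 159 and 167 CPM in KO (0.40, edgeR adjusted p = 0.0366). That list had 2 higher and 1 lower at an unadjusted p below 0.05, 1 and 0 by DESeq2, and 3 and 1 without KO replicate 1. Neither of the other proteases tested, Mmp2 and Ctss, was called (0.00 with edgeR adjusted p = 0.991 and -1.66 with edgeR adjusted p = 0.0554), and Ctss was called lower without KO replicate 1 (-2.21, edgeR adjusted p = 0.00205). Dropping KO replicate 1 raised the calls to 7 higher and 3 lower among regulators and to 12 higher and 3 lower among substrates. That fit called 19.3% of all its genes higher and 16.1% lower.

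**Figure D3:**
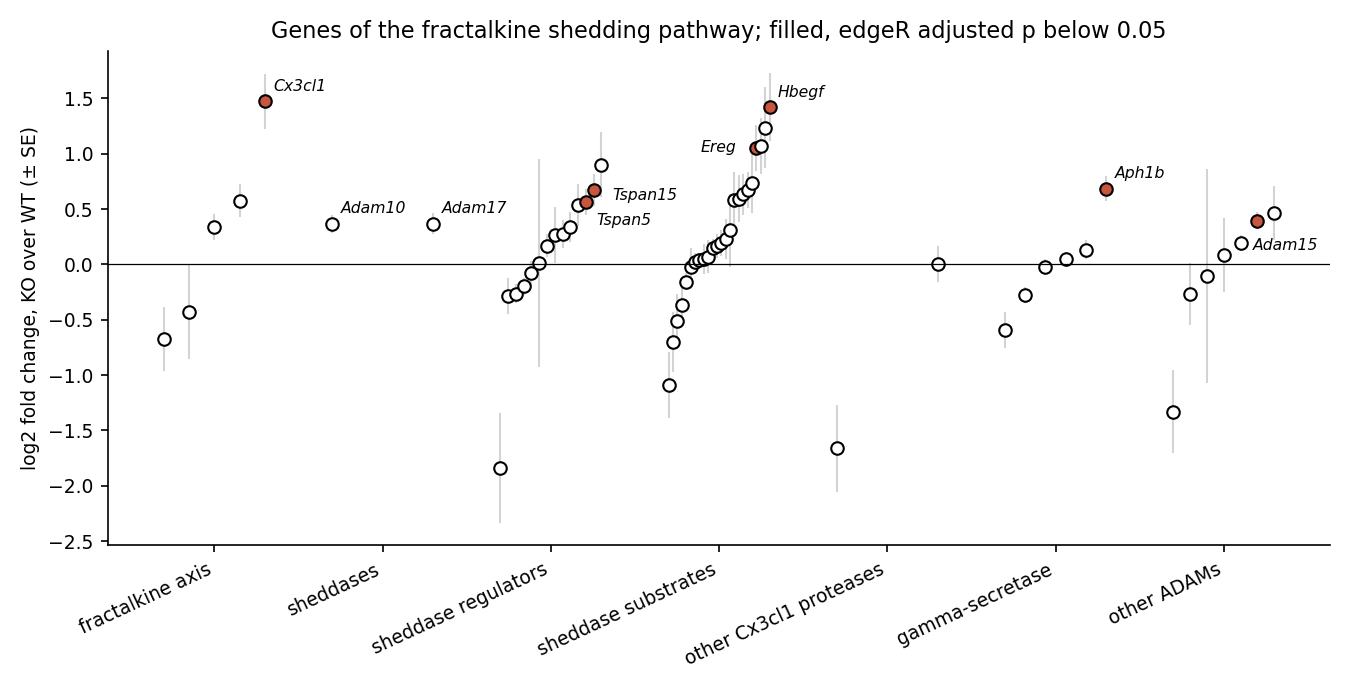
The log2 fold change of KO over WT (y axis, with SE) of every tested gene of the fractalkine shedding lists (x axis, 1 column of points a list, sorted by value), filled where the edgeR adjusted p is below 0.05. Cx3cl1 at 1.47 and Hbegf at 1.42 are the highest points.

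Fractalkine is also made by neurons and by activated endothelium, so markers of those cells were read beside Cx3cl1. Of 5 neuronal markers, Tubb3 and Map2, both genes of neuronal microtubule proteins, were higher in KO (log2 fold changes 1.36 and 0.55, edgeR adjusted p = 0.0227 and 0.0405). The other 3, among them the defining Rbfox3 and Snap25, lay under 1 CPM in every library. The list summed to 47.5 to 53.9 CPM in WT and 81.2 to 116 CPM in KO, nearly all of it Tubb3 and Map2. Of 7 endothelial markers 3 were tested and none was called by edgeR, with 1 at an unadjusted p below 0.05 and 0 called by DESeq2. That marker was Cdh5, the endothelial cadherin gene, at 0.743 CPM in WT and 1.56 CPM in KO (1.06, edgeR adjusted p = 0.128), which was called higher without KO replicate 1 (1.34, edgeR adjusted p = 0.0145). The other tested endothelial markers, Pecam1 and Vwf, were below 0. Pecam1 was at 0.456 CPM in WT and 0.278 CPM in KO (-0.71, edgeR adjusted p = 0.185), and Vwf at 0.617 and 0.554 CPM (-0.15, edgeR adjusted p = 0.819). Kdr had 0 counts in WT and 7, 19 and 9 in KO, Tek had 9, 0 and 0 in WT and 0 in KO, and neither was tested. Emcn had no count, and the list summed to 1.65 to 2.04 CPM in WT and 2.04 to 3.01 CPM in KO. Of 10 leukocyte markers, 8 lay under 1 CPM in every library, Adgre1 and Ncr1 had no count, and Cd3d, a T cell receptor chain gene, was lower in KO. That list summed to 55.4 to 76.3 CPM in WT and 42.8 to 123 CPM in KO, nearly all of it Cd68, a lysosomal gene that was called higher without KO replicate 1 (0.83, edgeR adjusted p = 0.00264) and not with it (0.48, edgeR adjusted p = 0.417). Among all tested genes, edgeR called 2.99% higher and 1.54% lower, and 16.9% and 12.6% had an unadjusted p below 0.05. DESeq2 called 14.3% and 8.61%, and edgeR without KO replicate 1 called 19.3% and 16.1%. The part of these markers in the Cx3cl1 difference was not tested.

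Genes next to Cx3cl1 on chromosome 8 were read for the same contrast. Within 250000 bases of the gene body the count table held 22 genes, of which 15 were tested, 2 rose and 0 fell by edgeR, with 5 higher and 1 lower at an unadjusted p below 0.05, and 4 and 1 called by DESeq2. The median log2 fold change was 0.12. Adgrg1, an adhesion receptor gene, stood at 11.7 CPM in WT and 22.2 CPM in KO (0.92, edgeR adjusted p = 0.0209), and Cpne2, a gene of a calcium-dependent membrane-binding protein, at 40.6 and 65.5 CPM (0.69, edgeR adjusted p = 0.0341). The 1 gene lower at an unadjusted p below 0.05 and by DESeq2 was Nlrc5, at 78.5 and 53.4 CPM (-0.55, edgeR adjusted p = 0.0660, DESeq2 adjusted p = 0.00469). Nlrc5 was also called lower without KO replicate 1 (-0.70, edgeR adjusted p = 0.0025). The chemokine genes that flank Cx3cl1 had few counts. Ccl22 had 0 counts in WT and 0, 3 and 0 in KO, and Ccl17 had 0 in WT and 6, 5 and 7 in KO, and neither was tested. Near Adam10, edgeR called 0 of 5 tested genes, with 1 higher at an unadjusted p below 0.05 and 1 by DESeq2. Near Adam17 it called 0 of 6, with 1 lower at an unadjusted p below 0.05 and 0 by DESeq2. Without KO replicate 1, 5 genes around Cx3cl1 were called higher and 2 lower, near Adam10 1 and 1, and near Adam17 0 and 2. Over all genes, edgeR called 2.99% higher and 1.54% lower, and 16.9% and 12.6% had an unadjusted p below 0.05. DESeq2 called 14.3% and 8.61%, and edgeR without KO replicate 1 called 19.3% and 16.1%.

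**Figure D4:**
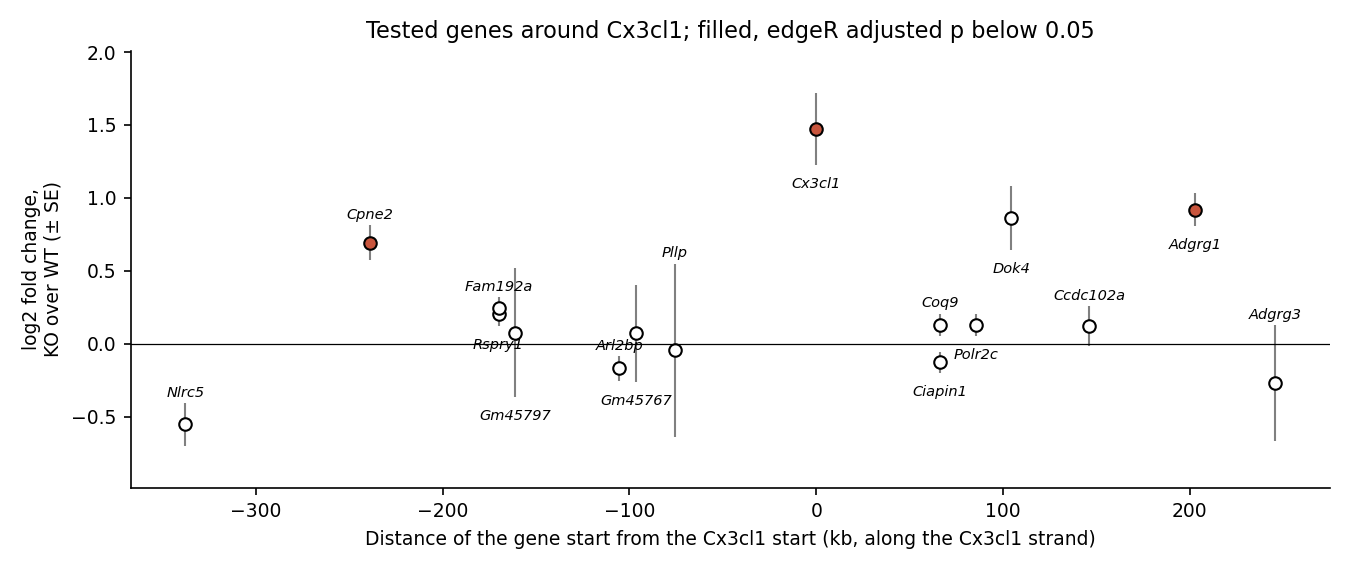
The log2 fold change of KO over WT (y axis, with SE) of Cx3cl1 and of the 15 tested genes with part of their body within 250000 bases of it, by the distance of each gene start from the Cx3cl1 start in kilobases (x axis). Cx3cl1, Adgrg1 and Cpne2 are filled, for an edgeR adjusted p below 0.05.

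The second question was where m6A and YTHDF2 sat on the 3 transcripts. Each list was deposited once per group, so peaks carry no replicate error and no test, and the score of a peak is the authors' value, read here as a p-value. Scores were not matched for transcript level, so they do not compare the extent of methylation between WT and KO. For Cx3cl1 that level was 7.04 CPM in WT and 19.5 CPM in KO input. All 3 members had a peak in every list. Among all tested genes 48.7% had a WT m6A peak, 45.0% a KO m6A peak and 34.3% a RIP peak, and 27.1% had a peak in all 3 lists. These shares were not matched for transcript level, which for Adam10 and Adam17 exceeded 81.9% and 77.4% of genes in WT.

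Cx3cl1 had 1 WT m6A peak, 1 KO m6A peak and 3 RIP peaks, where the median gene with peaks had 2, 2 and 3. The WT m6A peak covered 331 coding bases of exon 3, from 94779608 to 94779938, and centred 780 bases before the end of the coding sequence (score 4e-15). The KO m6A peak was nested in it, over the 121 bases printed above (score 1e-33). Of those 121 bases, 91 or 75.2% lay under a RIP peak from 94779728 to 94779848, whose score of 0.00012 was the weakest of the 3. Requiring a score of at most 0.0001 removed that RIP peak and with it the overlap. The other RIP peaks covered 271 coding bases from 94779968 to 94780238 (score 1.2e-07) and 61 bases of the 3′ UTR from 94781257 to 94781317 (score 5e-05). DRACH motifs stood at 18.4 per kilobase over the whole transcript and at 30.2 per kilobase in the WT m6A peak.

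Adam10 had its m6A peaks in the 5′ UTR and the 3′ UTR, and its RIP peaks on other bases. In both m6A lists 1 peak began at the first transcript base, over 151 bases in WT and 121 in KO (scores 2e-18 and 1.6e-14), within the 5′ UTR. The other began at 70778252 in the 3′ UTR, over 241 bases in WT and 211 in KO (scores 1.3e-30 and 2.5e-33), and the WT peak centred 281 bases past the coding end. The 3 RIP peaks covered 90 bases of exons 6 and 7, 151 bases of exons 9 and 10, and 151 bases of the 3′ UTR from 70779540 to 70779690. The number of bases they shared with an m6A peak was 0. Of the 7 DRACH motifs in the WT m6A peaks, 1 lay in the 5′ UTR peak and 6 in the 3′ UTR peak, and none was GGACT. The KO peak in the 5′ UTR held 0.

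Adam17 was the most heavily covered of the 3. It had 6 WT m6A peaks, 4 KO m6A peaks and 6 RIP peaks, and 97.1% of genes with a WT m6A peak had fewer. Its strongest m6A peak by score spanned the stop codon, over the same 330 bases from 21325155 to 21325484 in both lists (1.3e-98 in WT and 2e-81 in KO), and its coding 206 bases are those printed above. A second lay in the 3′ UTR from 21324138, over 449 bases in WT and 539 in KO (5e-59 and 3.2e-76). Both lists also placed peaks over exons 5 to 9. WT alone had peaks over exons 4 and 5 (121 bases, 7.9e-10) and exons 13 and 14 (180 bases, 3.2e-15), and no replicate lists exist here to test that difference. RIP peaks covered 79.6% of the Adam17 reference transcript, 13.7% of that of Cx3cl1 and 8.53% of that of Adam10. The widest Adam17 RIP peak held 2006 bases. Of 1260 Adam17 bases in both m6A lists, 1230 or 97.6% lay under a RIP peak, a share to be read against that wide coverage. Some Adam17 peak bases lie in exons outside the reference transcript.

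**Figure D5:**
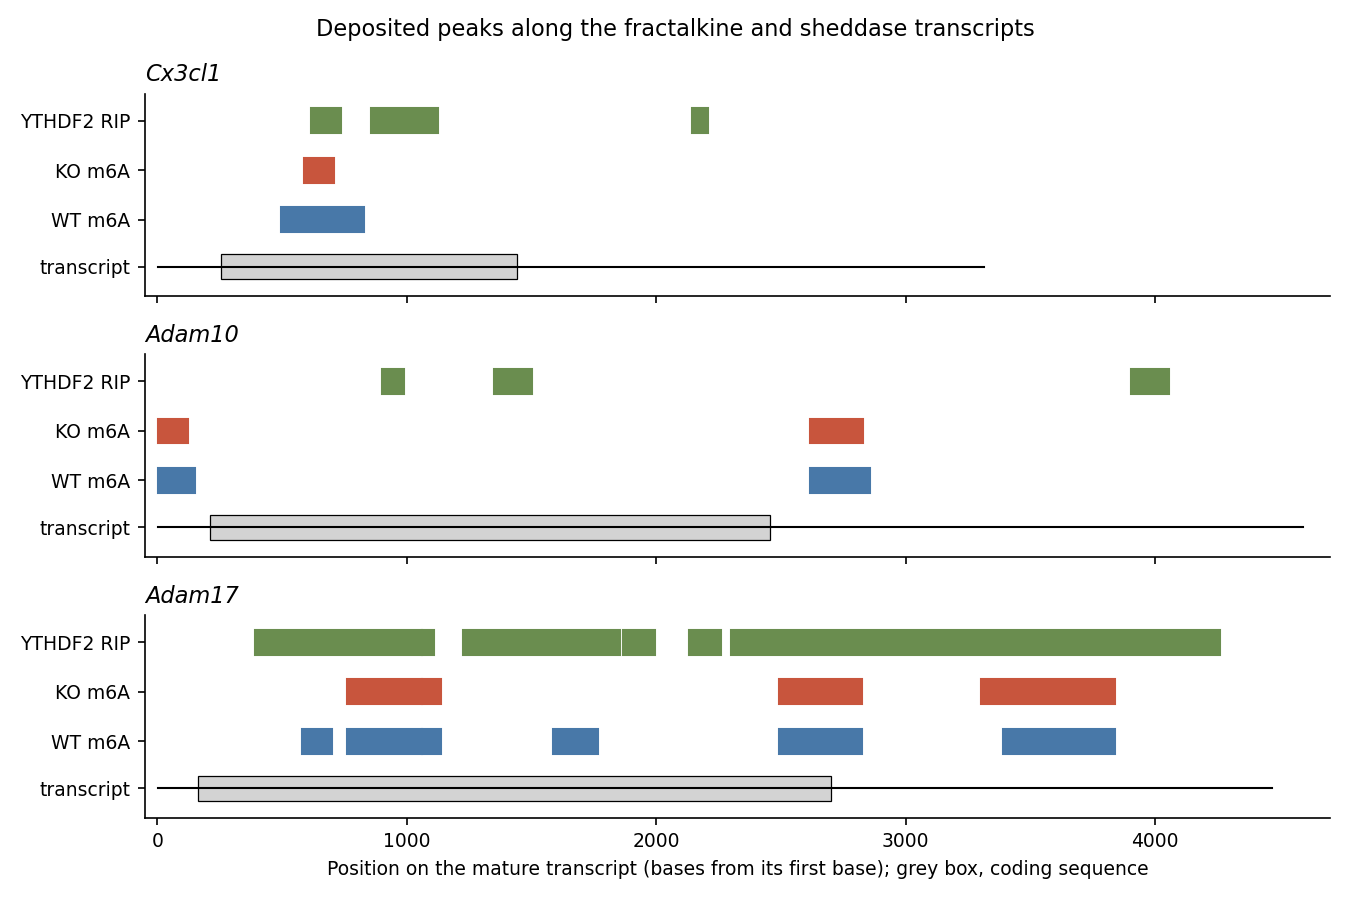
Deposited peaks along each reference transcript (x axis, bases from its first base), with the coding sequence as a grey box and 1 track each for WT m6A, KO m6A and YTHDF2 RIP; adjacent Adam17 peaks touch on the transcript scale. Cx3cl1 shows 1 coding m6A peak a list that a RIP peak overlaps in part, Adam10 m6A in both UTRs apart from its 3 RIP peaks, and Adam17 RIP over 79.6% of its length.

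Cx3cl1 and Adam17, but not Adam10, had a base shared by peaks of all 3 lists, as 21.2% of tested genes did. Of the 57 other tested genes of the lists, 33 had a WT m6A peak, 33 a KO m6A peak, 29 a RIP peak and 19 a shared base (33.3%), 12 of them among the 24 substrates. The shares of list genes and of all tested genes were not matched for transcript level. Of the 6 list genes that rose, Tspan5 and Aph1b had peaks in all 3 lists, Hbegf and Adam15 in the m6A lists only, Tspan15 in the RIP list only and Ereg in none. The number of those 6 with a base shared by all 3 lists was 0.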

How the data were processed

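RNA of MC38 cells was profiled as input, m6A immunoprecipitation and YTHDF2 RIP libraries. The authors deposited 3 peak lists and a matrix of raw read counts, whole numbers by gene, covering the 6 input libraries. The deposited peak scores, all at most 0.003, were read as p-values from their range, since the file headers name them only as a score. The submitters' processing notes name HISAT2, HOMER, ChIPseeker and mm10. No label or header names the counter, its strand setting or the peak caller. Enrichment in single IP or RIP libraries was not analysed.

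Counts were tested with the edgeR 4.0.16 quasi-likelihood F test (R 4.3.3, TMM, filterByExpr, no covariate, Benjamini-Hochberg adjustment over 18969 genes, called at 0.05), and fold changes are KO over WT. The SE is the size of the log2 fold change divided by the square root of F. CPM values use TMM-scaled library sizes. No pair of libraries agreed within sampling noise (chi-square per degree of freedom 8.31 for the closest pair). Peaks were placed on GENCODE M21 transcripts, and peaks overlapped if they had 1 or more exonic bases of 1 strand in common. Of the 55401 gene IDs, 54349 were found in that annotation. Alternatives were RLE factors, no TMM factor, no low-count filter, DESeq2 1.42.0, a replicate block, leaving out each library, stricter peak scores and overlaps, and GGACT in place of DRACH. The genes named are the 3 members, called list genes, Cx3cr1, Cxcl16, Rhbdf2, Timp3 and Ythdf2, genes within 250000 bases of a member, and for each member the 5 most correlated genes. The integrin, Tspan10, Tspan14, Tspan17, Tspan33, Areg, Btc, Nrg1, Egf, Il6ra, Psen2, Psenen, Mmp2, Ctss, Nlrc5 and marker values were chosen after their values were seen. The members and lists were chosen with earlier results of these data known.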

Additional observations from a re-analysis of the deposited data

How the results depend on the processing

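The log2 fold changes of the 3 members stayed above 0 under every alternative run. RLE factors and total counts without TMM factors changed none of the member calls and moved no count of calls past 1.5 times. DESeq2 called Adam10 (0.36) and Adam17 (0.36), with 2244 genes higher and 1346 lower in all and 12 and 4 among the list genes. Without the low-count filter Cx3cl1 lost its call (1.48, edgeR adjusted p = 0.0665), and 70 genes were higher, 41 lower and 0 list genes higher, in a fit that adjusted over more genes. The labels do not state whether replicate numbers pair the libraries. Same-numbered libraries correlated at 0.0494, 0.115 and 0.0502 in their deviations, and each correlated best with its own number. Values this small neither show nor exclude a pairing. With the replicate block Cx3cl1 was 1.43 (edgeR adjusted p = 0.0668), and 45 genes were higher, 26 lower and 1 list gene higher. Leaving out each library gave 1.33 to 1.71 for Cx3cl1, 0.31 to 0.43 for Adam10 and 0.32 to 0.46 for Adam17, with 0 to 3782 genes higher, 0 to 3144 lower, and 0 to 25 list genes higher and 0 to 10 lower. The highest counts came without KO replicate 1, and each other omission gave at most 53 higher and 40 lower. With a score of at most 0.0001, the number of Cx3cl1 WT m6A peaks under a RIP peak was 0 in place of 1. Counting GGACT in place of DRACH in the WT m6A peaks gave 2 in place of 10 for Cx3cl1, 0 in place of 7 for Adam10 and 1 in place of 39 for Adam17. An overlap of at least 50% of the smaller peak changed none of the 6 overlap counts. The level of Adam10 over Adam17 in WT became 0.855 per kilobase of the reference transcript, an alternative chosen after seeing the data. The cause was not tested for the calls that changed. Depth did not limit the member values, which rest on at least 308 counts a library. Cx3cr1, Cxcl16, Ccl17 and Ccl22 had too few counts to pass the low-count filter, and the cause was not tested.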
